A study of Aedes aegypti with 48 samples.

Results

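*vrille* (*vri*, AAEL011371) and *Par domain protein 1* (*Pdp1*, AAEL005255) encode basic leucine zipper (bZIP) transcription factors of the insect circadian clock. They were taken by their gene identifiers, 2 of 19804 in the count files, and followed in every genotype and time point. The names are those under which the identifiers were selected. None of the identifiers matched the gene table used here, so no coordinates are given.

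In *Drosophila*, the CLOCK (CLK) and CYCLE (CYC) proteins form a heterodimer that activates *vri* and *Pdp1* through E-box sequences. VRI protein then represses *Clk*, and PDP1 protein, which accumulates later, activates it through the same DNA elements, so that the pair forms a second feedback loop beside that of *per* and *tim*. In the fly, both transcripts cycle daily. These roles are known from the fly and stand here as background for the mosquito genes of the same name.

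The study compared a *Cyc* knockout line (KO) with the wild type (WT) of the mosquito *Aedes aegypti*, to describe the transcriptome without a functional clock under light and dark. Both were of the Liverpool strain, kept at 27 °C with light for 12 h of each day. Dawn and dusk were transitions of 1 h within this cycle, and the sources used here do not give their exact times. Whole females were pooled by 10 at 5 days after emergence, at Zeitgeber time (ZT) 1, 5 and 9 in the light and at ZT13 in the dark. Poly-A RNA was sequenced in 6 libraries, labelled as biological replicates, for each of the 8 groups of genotype and time. The KO line is *Cyc*-/-, and the sources used here do not give how many independent KO lines were used. Because whole bodies were sequenced, fewer cells that express a gene and less RNA per cell cannot be told apart, and a level averages over all tissues.

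The library labelled KO ZT13 replicate 1 held the same counts as WT ZT9 replicate 2 for all 19804 identifiers, and which of the labels is right is not known. The library was kept as WT ZT9 replicate 2. Under the label KO ZT13 replicate 1 it was left out of every value below unless stated, which leaves 47 libraries and 5 in KO at ZT13. Counts on genes ran from 10670669 to 33232780 per library, with a median of 26210624. *Cyc* itself (AAEL002049), the targeted gene, was lower in KO at ZT1, ZT5 and ZT13, with log2 fold changes of -0.92, -1.04 and -0.37, and the libraries of the genotypes did not overlap at these times. At ZT9 the *Cyc* libraries overlapped, at 25.2 to 33.5 CPM (counts scaled to a common library total) in KO and 27.5 to 33.3 CPM in WT, and the gene was not called there (edgeR adjusted p = 0.281). Levels below are CPM scaled with the trimmed mean of M-values (TMM). They are compared between libraries for 1 gene at a time, never between the genes, because gene lengths were not used.

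*vri* was called lower in KO at all 4 time points. Its KO means were 0.871, 0.767, 0.643 and 0.684 of the WT means at ZT1, ZT5, ZT9 and ZT13. Over all genes, 22.7%, 15.5%, 16.7% and 17.0% were called lower at these times, and the share called lower at all 4 was not computed. The ZT1 call was lost without WT ZT1 replicate 1 or 6 (edgeR adjusted p = 0.0571 and 0.0564). The *vri* level increased from ZT1 to ZT9 in WT and also in KO. *Pdp1* was called lower in KO at ZT13, in the dark, and its differences at the other 3 time points did not pass the test.

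At ZT1, the *vri* level in WT was lowest at 54.7, with a median of 59.6 and a highest value of 70.2 CPM. In KO it was lowest at 51.2, with a median of 52.2 and a highest value of 57.4 CPM. The ranges overlapped, and 4 of 6 KO libraries lay below every WT library. At ZT5, *vri* ran from 74.4 to 93.7 CPM in WT (median 82.8) and from 61.4 to 67.1 CPM in KO (median 63.0). The ranges did not overlap, with every KO library under every WT library.

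At ZT9, *vri* in WT ran from 97.7 to 139 CPM (median 104), with WT replicate 4 at the top and the other 5 libraries at 110 CPM or below. In KO it ran from 59.0 to 80.2 CPM (median 71.0). At ZT13, *vri* in WT ran from 104 to 122 CPM (median 116). The 5 KO libraries stood at 75.8, 76.6, 77.1, 78.7 and 88.6 CPM, so that 4 of them lay close together and 1 above them. At both ZT9 and ZT13 the genotypes were fully separated, with all KO libraries below all WT libraries.

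**Figure D1:**
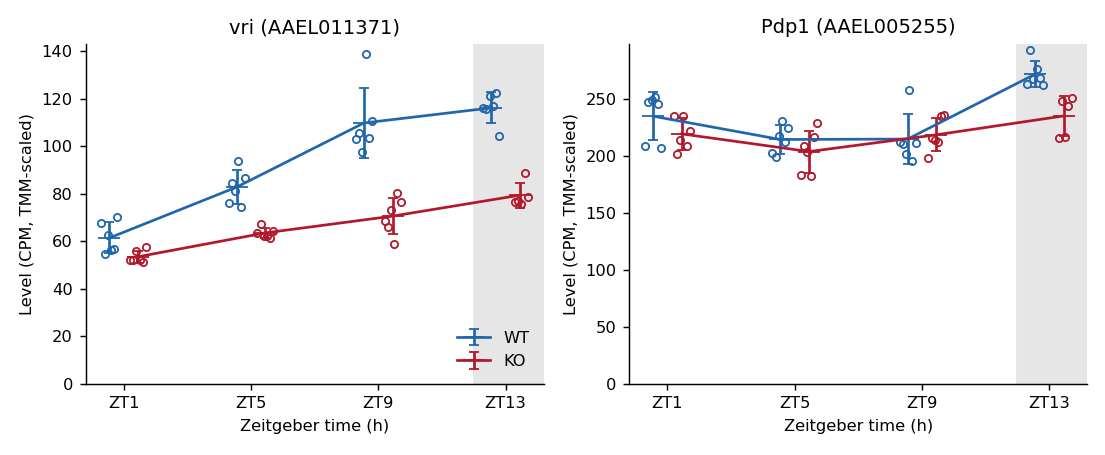
Level of *vri* and of *Pdp1* in TMM-scaled CPM (vertical axis, linear, from 0) at each Zeitgeber time (horizontal axis), with 1 circle per library, and crosses and bars for the mean and SD (n = 6, and n = 5 in KO at ZT13). The grey band marks the dark and does not show the dusk transition. *vri* climbed in WT from 61.4 ± 6.52 at ZT1 to 116 ± 6.48 CPM at ZT13 and stayed lower in KO, while the *Pdp1* libraries of the genotypes overlapped except at ZT13.

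The genotypes were compared within each time point by quasi-likelihood testing in edgeR. Its p-values were adjusted over all genes tested by the Benjamini-Hochberg procedure, and a gene was called at an adjusted p below 0.05. For *vri*, the mean at ZT1 was 53.5 ± 2.51 CPM in KO against 61.4 ± 6.52 CPM in WT (SD, n = 6 each). On the log2 scale KO was lower, at -0.20 with a standard error (SE) of 0.07 (edgeR adjusted p = 0.0234). By p, *vri* was position 4521 of 11535 genes. At this time point 47.1% of 11535 genes were called, 22.7% were called lower in KO and 22.9% had genotypes that did not overlap. Of the 2 genes 1 was called, and it was lower, and for 0 of the 2 were the genotypes without overlap. The ZT1 call for *vri* also rested on single WT libraries. Without WT ZT1 replicate 1 the log2 fold change was -0.17 (edgeR adjusted p = 0.0571), and without WT ZT1 replicate 6 it was -0.16 (edgeR adjusted p = 0.0564). These were the WT libraries with the highest *vri* at ZT1, at 67.7 and 70.2 CPM, against 54.7 to 62.7 CPM in the other 4.

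At ZT5, the *vri* mean was 63.5 ± 2.05 CPM in KO against 82.8 ± 7.07 CPM in WT (SD, n = 6 each), which gave a log2 change of -0.39 (SE 0.06, edgeR adjusted p = 0.000282). Over all genes, 31.0% were called, 15.5% were called lower, and 13.4% had genotypes that did not overlap. *vri* was position 283 of 11737 genes by p. At ZT9 the means were 70.6 ± 7.63 CPM in KO against 110 ± 14.7 CPM in WT (SD, n = 6 each), which gave a log2 change of -0.64 (SE 0.09, edgeR adjusted p = 0.000257). Here 33.0% of genes were called, 16.7% were called lower and 11.4% did not overlap, and *vri* was position 212 of 11673. The KO mean was 0.643 of the WT mean, the lowest ratio of the 4 time points. With WT ZT9 replicate 2 also left out, the log2 change was -0.65 and stayed called.

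At ZT13, *vri* averaged 79.4 ± 5.28 CPM in KO (SD, n = 5) and 116 ± 6.48 CPM in WT (SD, n = 6), a ratio of 0.684. The log2 fold change was -0.55 (SE 0.05, edgeR adjusted p = 7.20e-06). Of 11530 genes, 35.5% were called, 17.0% were called lower and 18.9% did not overlap. *vri* was position 62 by p in that comparison. With the library labelled KO ZT13 replicate 1 kept as labelled, the log2 fold change was -0.47 (edgeR adjusted p = 0.00352). That library held 105 CPM of *vri*, above all 5 other KO ZT13 libraries and within the WT ZT9 range.

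*Pdp1*, the activator of the pair in the fly, had overlapping levels in the genotypes during the light phase. At ZT1 it ran from 207 to 252 CPM in WT (median 247) and from 202 to 235 CPM in KO (median 218). At ZT5 it ran from 199 to 231 CPM in WT (median 215) and from 182 to 229 CPM in KO (median 206). At ZT9 it ran from 195 to 258 CPM in WT (median 211) and from 198 to 236 CPM in KO (median 215). The ranges overlapped at each of these times, and 1, 2 and 0 of 6 KO libraries lay below every WT library at ZT1, ZT5 and ZT9.

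At ZT13, *Pdp1* in WT ran from 262 to 293 CPM (median 268). The 5 KO libraries stood at 216, 217, 244, 248 and 251 CPM. They fell into a lower pair and an upper set of 3, and all 5 lay below every WT library. The means were 235 ± 17.4 CPM in KO (SD, n = 5) and 272 ± 11.5 CPM in WT (SD, n = 6), a ratio of 0.865 and a log2 fold change of -0.21 (SE 0.05, edgeR adjusted p = 0.00612). By p, *Pdp1* was position 1818 of 11530 genes. Against the 17.0% of genes called lower and the 18.9% that did not overlap at ZT13, both genes were called lower and had genotypes that did not overlap.

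The *Pdp1* differences in the light phase were small, and their intervals bound them. The log2 fold change at ZT1 was -0.10 with a 95% interval from -0.24 to 0.04 (edgeR adjusted p = 0.220). At ZT5 it was -0.08, from -0.21 to 0.06 (edgeR adjusted p = 0.375), and at ZT9 it was 0.03, from -0.12 to 0.17 (edgeR adjusted p = 0.803). These comparisons did not detect a difference, and the intervals do not reach the change of -0.39 or more in size that *vri* had at ZT5, ZT9 and ZT13. At ZT1 the *Pdp1* interval does include the *vri* change at that time, -0.20.

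**Figure D2:**
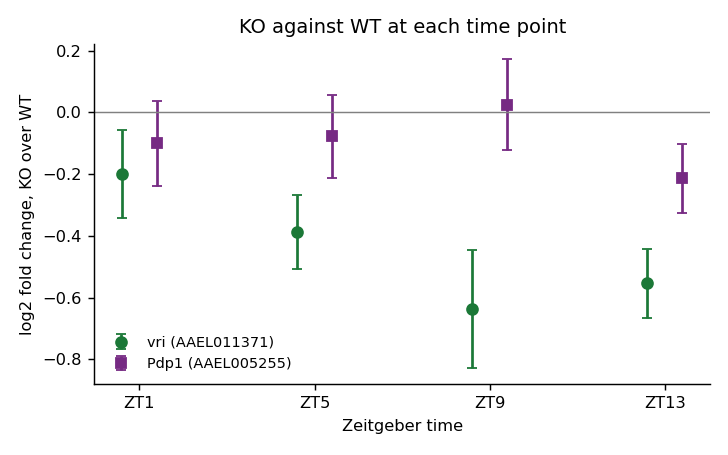
Log2 fold change of KO over WT (vertical axis, linear) for *vri* (green circles) and *Pdp1* (purple squares) at each Zeitgeber time (horizontal axis), with bars for the 95% interval of edgeR's quasi-likelihood fit. The *vri* intervals lie below 0 at all 4 times, from -0.20 at ZT1 to -0.64 at ZT9, and the *Pdp1* interval lies below 0 at ZT13 alone.

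How each gene changed with time was tested in 1 fit of the 47 libraries over 12344 genes, with a mean per genotype and time. In WT, *vri* had an edgeR adjusted p of 7.47e-14 for equal levels at the 4 time points, position 13 of all genes, where 13.4% were called. Its level rose from ZT1 to ZT5 by a log2 of 0.43 (SE 0.07, edgeR adjusted p = 8.41e-05), a step in which 2.23% of genes were called higher. It rose again from ZT5 to ZT9 by 0.41 (SE 0.07, edgeR adjusted p = 0.000180), where 0.705% of genes were called higher. From ZT9 to ZT13 the difference was 0.08, with a 95% interval from -0.06 to 0.22, and was not called (edgeR adjusted p = 0.629). From ZT1 to ZT13 the level rose 1.89-fold, a log2 of 0.92 (edgeR adjusted p = 1.12e-13), where 4.27% of genes were called higher.

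In KO, *vri* also changed with time, with an edgeR adjusted p of 2.38e-06 and position 48 of all genes, of which 18.5% were called. It rose from ZT1 to ZT5 by a log2 of 0.25 (edgeR adjusted p = 0.0262), where 5.55% of genes were called higher. The next steps, 0.15 from ZT5 to ZT9 and 0.17 from ZT9 to ZT13, were not called (edgeR adjusted p = 0.567 and 0.325). Over longer spans it rose, by 0.40 from ZT1 to ZT9 (edgeR adjusted p = 0.000457; 3.60% of genes called higher) and by 0.32 from ZT5 to ZT13 (edgeR adjusted p = 0.00603; 1.47% called higher). From ZT1 to ZT13 the increase was 1.48-fold, a log2 of 0.57 (edgeR adjusted p = 4.60e-07; 12.2% called higher).

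*Pdp1* in WT showed no called change within the light phase and was higher at ZT13. Its edgeR adjusted p for equal levels was 8.39e-05, position 339. The ZT5 and ZT9 levels differed by a log2 of 0.00, and each was 0.13 below ZT1 without being called (edgeR adjusted p = 0.290 and 0.358). From ZT9 to ZT13 it rose by 0.34 (SE 0.06, edgeR adjusted p = 0.000225), a step in which 3.35% of genes were called higher. It was also higher at ZT13 than at ZT5, by 0.34 (edgeR adjusted p = 0.000127; 3.40% called higher), and than at ZT1, by 0.21 (edgeR adjusted p = 0.0236).

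In KO, *Pdp1* was not called for time (edgeR adjusted p = 0.103). Of the 6 pairs of time points 0 were called by edgeR, the tool run for these pairs, and 1 had an unadjusted edgeR p below 0.05, ZT13 against ZT5 (0.00301). Its step from ZT9 to ZT13 was 0.11 (edgeR adjusted p = 0.599) and that from ZT5 to ZT13 was 0.21 (edgeR adjusted p = 0.0813). Without KO ZT5 replicate 6 the test over the 4 time points passed (edgeR adjusted p = 0.0464). That *Pdp1* changed with time in WT and was not called in KO does not show that the genotypes differ in its course: the interaction below had an edgeR adjusted p of 0.434.

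**Figure D3:**
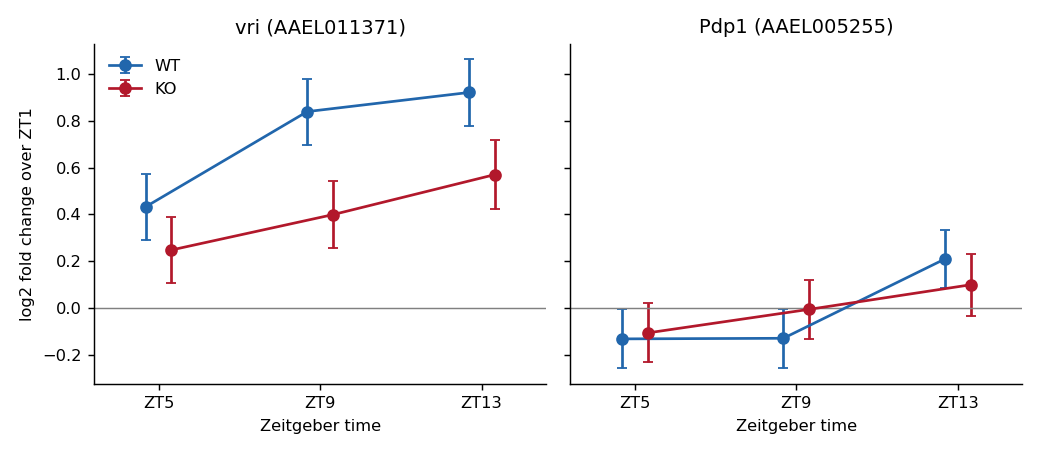
Log2 fold change over ZT1 (vertical axis, linear) at ZT5, ZT9 and ZT13 (horizontal axis) within WT (blue) and within KO (red) for *vri* and *Pdp1*, with bars for the 95% interval of edgeR's fit of 47 libraries. All points of a line share the ZT1 libraries of that genotype. *vri* reached 0.92 in WT and 0.57 in KO at ZT13, and *Pdp1* reached 0.21 in WT and 0.10 in KO.

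Whether the KO effect itself changed between time points was tested in the same fit as a genotype by time interaction. *vri* passed, with an edgeR adjusted p of 0.0334 and position 123 of 12344 genes, of which 1.30% were called. The largest difference was between ZT9 and ZT1: the log2 KO effect at ZT9 minus that at ZT1 was -0.44 (SE 0.10, 95% interval -0.64 to -0.24, edgeR adjusted p = 0.0195), a contrast in which 0.292% of genes were called lower. The other 5 pairs of time points were not called for *vri*. Between ZT13 and ZT1 the difference was -0.35 (edgeR adjusted p = 0.0963), between ZT9 and ZT5 it was -0.26 (0.475), and between ZT13 and ZT9 it was 0.09 (0.924).

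The call of the *vri* interaction sat near the threshold. It was lost with KO ZT13 replicate 1 kept as labelled (edgeR adjusted p = 0.109) and with the replicate number as a block (edgeR adjusted p = 0.0519). It was also lost without any 1 of 12 libraries, which were KO ZT1 replicates 1, 2, 3, 4 and 6, WT ZT1 replicates 2, 4 and 5, KO ZT9 replicates 2 and 4 and KO ZT13 replicates 3 and 6, and over all 47 omissions the edgeR adjusted p ran from 0.0170 to 0.0658. The contrast of ZT9 with ZT1 stayed called in each of these omissions (edgeR adjusted p from 0.00821 to 0.0471), and had an edgeR adjusted p of 0.0728 with KO ZT13 replicate 1 kept as labelled.

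ZT13 was the time point in the dark, so the KO effect there was set against the mean of the 3 light time points. The difference was -0.14 for *vri* (edgeR adjusted p = 0.677) and -0.16 for *Pdp1* (edgeR adjusted p = 0.581), and 0.154% of genes were called. The *Pdp1* difference at ZT13 was therefore not shown to differ from that in the light. With 1 dark time point, darkness and hour of the day cannot be told apart.

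The 8 group means were put in order. For *vri* the order from the lowest was KO ZT1, WT ZT1, KO ZT5, KO ZT9, KO ZT13, WT ZT5, WT ZT9 and WT ZT13. The widest gap separated WT ZT5 (82.8 CPM) from WT ZT9 (110 CPM), exceeded the larger SD of 14.7 CPM and left their libraries without overlap. The gaps below WT ZT1 (7.91 CPM) and below KO ZT13 (8.81 CPM) also exceeded the larger SD of their neighbours, but their libraries overlapped. The gaps below KO ZT5, KO ZT9, WT ZT5 and WT ZT13 did not exceed the larger SD. Thus the highest KO group, ZT13 at 79.4 CPM, was next to WT at ZT5 and did not differ from it beyond the spread.

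For *Pdp1* the order from the lowest was KO ZT5, WT ZT5, WT ZT9, KO ZT9, KO ZT1, WT ZT1, KO ZT13 and WT ZT13. Only the last step, 36.6 CPM from KO ZT13 to WT ZT13, exceeded the larger SD of 17.4 CPM. The first 7 groups lay between 204 and 235 CPM, with no gap between neighbours beyond the spread. In this order of means, only WT at ZT13 stood apart from its lower neighbour. Gaps between neighbours do not measure the spread among the first 7 groups. The order is a description, and the genotype by time interaction of *Pdp1* was not called (edgeR adjusted p = 0.434).

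The *vri* counts were divided by the *Pdp1* counts within each library, a measure that no scaling of libraries alters. It is given as a description, without a test. In WT the log2 ratio was -1.94 ± 0.28, -1.38 ± 0.10, -0.97 ± 0.06 and -1.23 ± 0.09 at ZT1, ZT5, ZT9 and ZT13 (SD, n = 6 each). The ratio was highest at ZT9, and at ZT13, when the *Pdp1* level was higher, it lay between those of ZT5 and ZT9. In KO it was -2.04 ± 0.11, -1.68 ± 0.13 and -1.64 ± 0.12 at ZT1, ZT5 and ZT9 (SD, n = 6 each) and -1.57 ± 0.11 at ZT13 (SD, n = 5).

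The ratios of the genotypes overlapped at ZT1 and were fully separated at the other times. The KO minus WT difference of the log2 ratio was -0.10 at ZT1, -0.30 at ZT5, -0.66 at ZT9 and, in the dark, -0.34. The ZT1 spread in WT came from replicates 1 and 6, which had high *vri* and low *Pdp1* (208 and 207 CPM, against 246 to 252 CPM in the other 4).

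**Figure D4:**
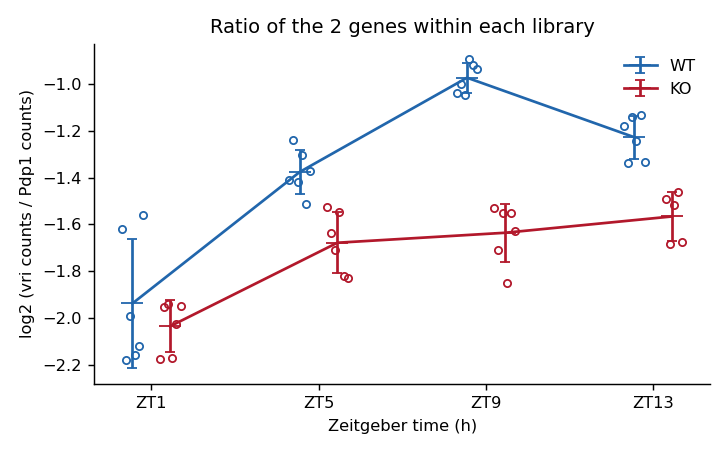
Log2 of the *vri* count over the *Pdp1* count in each library (vertical axis, linear; 1 circle per library, crosses and bars for mean and SD, n = 6 and n = 5 in KO at ZT13) against Zeitgeber time (horizontal axis) in WT (blue) and KO (red). WT reached -0.97 ± 0.06 at ZT9, and the genotypes did not overlap at ZT5, ZT9 and ZT13.

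A daily rhythm was described with 5 models of a 24-h cosine and sine: no rhythm, rhythm in KO alone, in WT alone, shared, or different in each genotype. The model with the lowest value of the Bayesian information criterion was taken, with its weight among the 5. *vri* took a different rhythm in each genotype, with a weight of 0.998. Of 17781 genes, 216 (1.21%) took this model. The *vri* peak-to-trough amplitude was a log2 of 0.99 in WT and 0.53 in KO, with fitted peaks at ZT 11.4 and ZT 12.3.

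*Pdp1* took the shared rhythm, with a weight of 0.774, against 0.173 for a different rhythm in each. That class held 2626 genes (14.8%). Its shared amplitude was a log2 of 0.43 and its fitted peak at ZT 17.6, outside the sampled times. The 4 time points cover ZT1 to ZT13, less than a whole cycle, so these amplitudes and peaks are extrapolated.

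Likeness to other genes was taken as Pearson's r over the log2 CPM of the 47 libraries, among 9942 other genes whose mean log2 CPM was 1 or more. The libraries share genotype, time and depth, and r is a description. For *vri* the highest was AAEL014765 (r = 0.86), followed by AAEL011918 (0.84), AAEL024179 (0.83), AAEL000910 (0.83) and AAEL004719 (0.80). AAEL014765 had a mean of 11.7 ± 1.15 CPM in WT against 8.42 ± 1.55 CPM in KO at ZT9, and 7.09 ± 0.80 against 6.89 ± 0.91 CPM at ZT1 (SD, n = 6 each). Its r with *vri* was 0.96 over the 8 group means and 0.52 within groups. Within groups, AAEL011918, AAEL024179, AAEL000910 and AAEL004719 had lower r with *vri*, at 0.35, 0.12, 0.20 and 0.47. AAEL000910 had group means from 1.09 to 1.76 CPM in KO, and in WT 2.45 ± 0.30 CPM at ZT1 and 5.12 ± 1.30 CPM at ZT9 (SD, n = 6 each).

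For *Pdp1* the most alike was AAEL019461 (r = 0.77), followed by AAEL022646 (0.77), AAEL009487 (0.76), AAEL008141 (0.76) and AAEL024953 (0.75). Within groups, their r with *Pdp1* was 0.64, 0.54, 0.78, 0.63 and 0.61, in that order. AAEL019461 and AAEL008141 belong to the circadian rhythm genes below, and neither is named in the sources used here. AAEL008141 was 186 ± 5.34 CPM in WT (SD, n = 6) and 112 ± 10.3 CPM in KO (SD, n = 5) at ZT13. *vri* and *Pdp1* were not much alike, with r = 0.40 over all libraries, 0.26 in WT and 0.37 in KO. *Pdp1* was position 2361 in the order of *vri*, and *vri* was position 438 in the order of *Pdp1*.

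The 2 genes were set beside the other genes listed under the fly circadian rhythm pathway. This list of 10 identifiers, *Cyc* and both bZIP genes included, came from the study's own enrichment of genes called in these libraries, so its counts are no independent evidence. At ZT1, 7 of 10 were called lower in KO and 1 higher. At ZT5 the counts were 3 lower and 2 higher, at ZT9 5 lower and 1 higher, and at ZT13 8 lower and 1 higher. Over all genes, 22.7%, 15.5%, 16.7% and 17.0% were called lower at these times, and 24.5%, 15.5%, 16.3% and 18.6% higher. The median log2 fold change of the list was -0.36, -0.16, -0.22 and -0.28 at ZT1, ZT5, ZT9 and ZT13, while the median of all genes tested was 0.02, 0.01, 0.00 and 0.00.

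Within this list *vri* was 1 of the genes lower at all 4 times, as was AAEL019753. AAEL022593 moved the other way: it was higher in KO at all 4 times, by a log2 of 0.33, 0.61, 0.99 and 0.43 (edgeR adjusted p = 0.0315, 0.0298, 0.000125 and 0.0129). Its r with *vri* was -0.59 over the 47 libraries, -0.71 over the group means and -0.09 within groups. It was -0.39 over the WT libraries and -0.13 over the KO libraries. AAEL008141 was lower in KO at ZT1, ZT9 and ZT13 (-0.41, -0.32 and -0.74) and higher at ZT5 (0.27), with edgeR adjusted p of 0.00206, 0.0297, 1.02e-06 and 0.0176. *Pdp1* shared with AAEL019461 an uncalled difference at ZT5 and ZT9 and a lower level in KO at ZT13, where AAEL019461 had a log2 fold change of -0.37 (edgeR adjusted p = 0.00176). At ZT1 AAEL019461 was called lower (-0.37, edgeR adjusted p = 0.0162) and *Pdp1* was not.

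**Figure D5:**
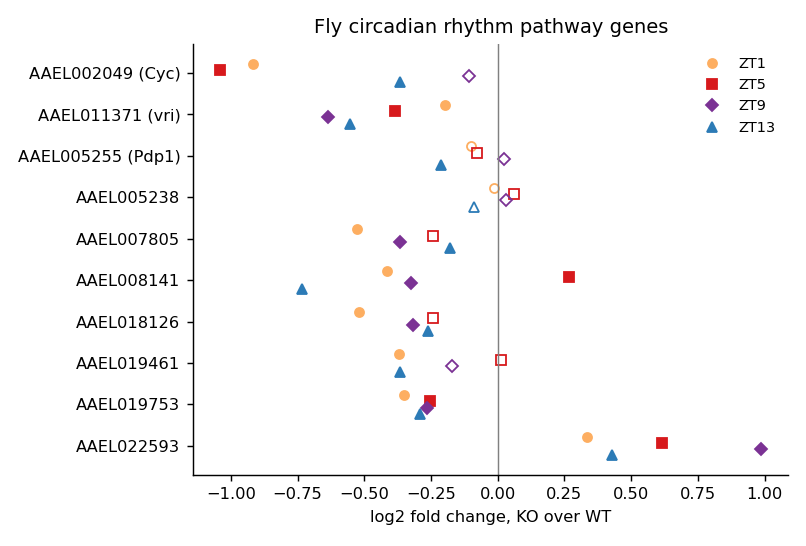
Log2 fold change of KO over WT (horizontal axis, linear) for the 10 identifiers of the fly circadian rhythm pathway (rows) at ZT1 (orange circles), ZT5 (red squares), ZT9 (purple diamonds) and ZT13 (blue triangles), filled where edgeR's adjusted p was below 0.05 and open otherwise. *vri* is filled and left of 0 at all 4 times, *Pdp1* is filled at ZT13 alone, and AAEL022593 lies right of 0 at all 4 times, up to 0.99 at ZT9.

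Sequencing depth and the share of reads placed on more than 1 site varied between libraries, from 25.6% to 55.5% for the latter. Within groups, over the 47 libraries, the log2 CPM of *vri* had r = -0.08 with depth and 0.10 with that share, and *Pdp1* had r = -0.17 and 0.10. These values do not bear on differences between the groups. The group median of that share ran from 30.5% in KO at ZT9 to 44.7% in KO at ZT1. Its part in the comparisons of genotype and time was not tested. The lowest count behind a *vri* level was 755 reads.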

How the data were processed

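RNA-seq counts of 48 libraries, 6 for each genotype and time point, were used. The authors trimmed reads with Trim Galore 0.6.6, used HISAT2 2.2.1 for alignment to AaegL5_2 of VectorBase and took gene counts with HTSeq 0.11.3. They deposited these counts as whole numbers, not normalized. The sources used here do not give the strand setting, and reads of overlapping genes cannot be told apart. The 5 summary lines were left out, which leaves 18.4% to 31.7% of each total on genes.

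At each time point KO and WT were compared with edgeR 4.0.16 (quasi-likelihood test, TMM scaling, filterByExpr) under R 4.3.3, and p-values were adjusted over all genes by Benjamini-Hochberg, with a threshold of 0.05. Time and interaction came from 1 fit of 47 libraries. The SE was derived from the test, as the size of the log2 fold change divided by the root of F. CPM for likeness used a prior count of 2. Rhythm models were fitted with DESeq2 1.42.0. The scripts were tested on simulated data. Alternatives were DESeq2's tests and size factors, a fit without the low-count filter, a single fit for KO against WT, the replicate number as a block, the duplicated library kept, and each library left out in turn. For the time and interaction results the last was chosen after seeing the data.

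The named genes are the 2 members, *Cyc*, the circadian list where a comparison turns on it, and the 5 genes most alike to each member. Members and lists were chosen with earlier results of these data known. Tissue markers could not be checked, since 0 of 19804 identifiers matched the reference gene table.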

Additional observations from a re-analysis of the deposited data

Results flagged for a closer look

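In 4 of 16 groups of a gene, genotype and time, the highest or lowest library stood far from the others by Dixon's criterion, which chance meets in about 1 group in 20. *vri* in WT at ZT9 was 139 CPM in replicate 4, and in the same library *Pdp1* was 258 CPM, each the highest of its group. *vri* in WT at ZT13 was 104 CPM in replicate 6, the lowest. *vri* in KO at ZT13 was 88.6 CPM in replicate 5, the highest. Without these libraries in turn, the *vri* log2 fold change was -0.56 at ZT9, and -0.58 and -0.60 at ZT13, and the calls held.

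The KO effect on *vri* differed between time points by the interaction test of edgeR (adjusted p = 0.0334), and between ZT9 and ZT1 by a log2 of -0.44. The interaction was not called with the replicate block (edgeR adjusted p = 0.0519), with KO ZT13 replicate 1 kept as labelled (0.109) or without any 1 of 12 libraries.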

How the results depend on the processing

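Of 842 alternatives over 54 results of the 2 genes, 821 kept direction and side of the threshold, or the model for the rhythm results. The time and interaction results were taken as ranges, whose direction cannot change. Among the 21 that differed, 14 were of the *vri* interaction, which lost its call in these and kept it in 39. Leaving out 1 library of the time point in turn, the KO against WT log2 fold change of *vri* ran from -0.23 to -0.16 at ZT1, from -0.42 to -0.35 at ZT5, from -0.67 to -0.56 at ZT9 and from -0.60 to -0.54 at ZT13. That of *Pdp1* ran from -0.13 to -0.08, from -0.12 to -0.05, from -0.000327 to 0.085 and from -0.24 to -0.19. At ZT9 the *Pdp1* sign turned without WT replicate 5 (-0.000327), and *vri* lost its ZT1 call without WT replicate 1 (-0.17) or 6 (-0.16). *Pdp1* in KO at ZT9 against ZT1 was -0.01, and 0.000631 with DESeq2's size factors.

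With KO ZT13 replicate 1 kept as labelled, which enters the same counts under both genotypes, 2129 genes were called at ZT13 in place of 4095. The *vri* interaction, given as the range of its KO effects (0.44), was then 0.42 (edgeR adjusted p = 0.109), the ZT9 against ZT1 contrast was -0.42 (0.0728), and *Pdp1* in KO at ZT9 against ZT1 was 0.000426. Genes called for the KO effect at ZT13 against the light phase were 40 in place of 19, and 47 with DESeq2. Genes called for the interaction were 161, and 347 with DESeq2. Contrasts of the KO effect called 56 in place of 133 genes for ZT5 against ZT1, 36 in place of 58 for ZT9 against ZT1 and 117 in place of 74 for ZT13 against ZT1. Without a filter on low counts, 87 of the first were called, and 14 in place of 24 for KO at ZT9 against ZT5.

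Each of the 47 libraries left out in turn gave a *vri* interaction range of 0.36 to 0.48, a *Pdp1* range over time in KO of 0.18 to 0.24 (0.24 without KO ZT5 replicate 6, which passed), 1182 to 3320 genes called for time in KO (main 2281; 1182 without KO ZT1 replicate 1 and 1207 without replicate 4), 13 to 31 for ZT13 against the light phase (31 without KO ZT5 replicate 1) and 42 to 95 for ZT9 against ZT1 (95 without KO ZT1 replicate 2).

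With the replicate number as a block, the *vri* interaction range was 0.44 (edgeR adjusted p = 0.0519), 17 in place of 32 genes were called for ZT9 against ZT5, and no other call of the 2 genes changed. Within a time point, correlations of deviations between KO and WT libraries of the same number ran from -0.05 to 0.11 over 23 pairs. Of these, 1 was above 0.1. Whether libraries of the same number were alike across time points, which the block also models, was not tested. For the changes listed, the cause was not tested.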

Other observations

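WT ZT1 replicates 1 and 6 differed from the other 4 libraries of their group for 3 clock genes, higher in *vri* and lower in *Pdp1* and *Cyc*. *vri* was 67.7 and 70.2 CPM (54.7 to 62.7 CPM in the others), *Pdp1* was 208 and 207 CPM (246 to 252 CPM) and *Cyc* was 65.1 and 63.3 CPM (71.5 to 75.4 CPM). WT ZT9 replicate 4, highest in both bZIP genes, was also the highest of its group for AAEL008141 (96.3 CPM) and AAEL019461 (132 CPM). The library that carries 2 labels held 105 CPM of *vri* and 211 CPM of *Pdp1*.

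Over all 47 libraries *vri* had r = -0.12 with *Cyc*. It was -0.81 over the WT libraries and -0.44 over the KO libraries, which span the 4 time points, and 0.08 within groups. *Cyc* in WT was 70.6 ± 5.14, 67.2 ± 2.39, 30.8 ± 1.96 and 40.0 ± 3.52 CPM at ZT1, ZT5, ZT9 and ZT13 (SD, n = 6 each). ZT5 against ZT1 was not called (-0.07, edgeR adjusted p = 0.744), and *Cyc* rose from ZT9 to ZT13 by a log2 of 0.38 (edgeR adjusted p = 0.00105).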
